A study of Mus musculus with 12 samples.

Results

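Microglia are the resident macrophages of the retina, and the genes described here are 34 genes known for their expression in microglia, macrophages and antigen-presenting cells. They were chosen by name, with earlier results of these data known, and found by Entrez ID in every library, 34 of 34 among 27179 gene IDs. The genes fall into 9 genes of homeostatic microglia, 9 genes shared by myeloid cells, 13 genes of activation and phagocytosis and 3 genes of MHC class II antigen presentation. Of the 34, 29 passed the low-count filter, and 16475 of all gene IDs passed it. The filter asks for about 0.337 CPM (a gene's counts over those of the library, times 1e6), before TMM scaling, in at least as many libraries as a group holds. The CPM values below are TMM-scaled.

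Homeostatic microglia survey the tissue and carry receptors for neuronal signals, among them the fractalkine receptor Cx3cr1 and the ADP receptor P2ry12. When they engage debris or lipids, TREM2 at the cell surface signals through its adaptor TYROBP, and genes of lysosomal digestion and innate recognition such as Ctss, Lyz2 and Cd14 are known to be raised. Class II molecules (H2-Aa paired with H2-Ab1) display peptides to helper T cells, and Cd74, the invariant chain, guides them through the cell. ABCA1 exports cholesterol and phospholipids from the cell.

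RNA came from mouse retina, bulk tissue in which all retinal cells are pooled. The 4 groups, with 3 libraries each, were control retina at 3 months, retina of the glia-specific ABCA1 knockout (KO) at 3 months, control retina at 12 months and KO retina at 12 months. The extraction notes call the mice Astro-KO. The labels give no strain, no Cre driver, no further allele and no sex, do not say what genotype the controls carried, and are silent on whether each library of a group was from its own mouse. The p-values therefore rest on the spread between libraries, which could be technical. Nor do the labels say whether both ages were prepared together, so age and preparation cannot be told apart. In bulk tissue, fewer cells of a type and less RNA per cell cannot be told apart either.

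The libraries held 29027099 to 30438026 counts, of which the 34 genes took 1727 to 2564. At 3 months Abca1 itself, the targeted gene, was at 22.7 ± 3.34 CPM in control and 26.3 ± 1.78 CPM in KO retina (SD, n = 3), and at 30.8 ± 2.66 and 36.3 ± 7.91 CPM at 12 months. It was thus not lower in whole KO retina at either age, and "KO" below means the libraries labelled so. Replicate 2 of 3-month control stood apart through lens RNA, with a summed 4030 CPM over 9 lens markers. All 3 libraries of 3-month control carried skeletal muscle RNA (68.8 to 79.2 CPM over 8 markers), against at most 7.34 CPM in the other groups. Xist was at 52.3 to 85.5 CPM in 12-month KO retina and at most 0.609 CPM in the other groups, while the Y-linked gene Ddx3y was at 20.0 to 47.4 CPM across all 12 libraries.

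The microglial label was first set against markers of other blood cells. Not 1 of the 8 T and NK cell markers passed the low-count filter, their sum was 0.202 to 0.778 CPM in a library, and Nkg7 was at 0 throughout. Ccr2, which marks inflammatory monocytes, was at 0 in all libraries of 3 groups and at 0 to 0.135 CPM in 12-month control. The monocyte markers Chil3 (0 to 8 counts), Plac8 (0 to 8 counts) and Ly6c2 (0 to 5 counts) were under the filter too. Of 9 markers of perivascular and tissue macrophages 4 passed the filter, with a summed 17.3 to 22.0 CPM over the 9. Most of that sum was Lyve1 (8.76 to 14.1 CPM) and Stab1 (4.94 to 8.54 CPM), scavenger and hyaluronan receptor genes also known in endothelium. Cbr2 (mean 0.618 CPM, 0 to 30 counts) and Clec10a (mean 0.281 CPM, 4 to 14 counts) also passed. Under the filter were Mrc1 (0.102 to 0.402 CPM), Cd163 (at most 0.371 CPM), Pf4 (at most 0.206 CPM), F13a1 (0 to 12 counts) and Ms4a7 (0 to 14 counts). B cell markers, 4 of 6 over the filter, summed to 6.17 to 11.3 CPM, mostly Jchain (4.49 to 9.09 CPM), an antibody chain gene. Dendritic cell markers, 3 of 6 over the filter, summed to 6.69 to 8.78 CPM, mostly Flt3 (2.36 to 4.91 CPM) and Zbtb46 (2.66 to 4.41 CPM). Xcr1 (2 to 34 counts) also passed, while Clec9a (0 to 8 counts), Cd209a (0 to 1 counts) and Ccr7 (0 to 2 counts) did not. The part of these cells in the levels of the 34 genes was not tested. Homeostatic microglia genes were present in every library, except that P2ry13, a purinergic receptor, had 0 counts in replicate 2 of 3-month control. They summed to 18.6 to 26.9 CPM, mostly Olfml3 (7.92 to 16.5 CPM) and Cx3cr1 (3.01 to 5.91 CPM).

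Per kilobase of exon, the most abundant of the 34 was Ctss, which encodes cathepsin S, the protease that trims the invariant chain, at a mean of 5.30 CPM per kb. It was followed by Fcer1g, the signalling chain of Fc receptors, at 2.61 CPM per kb, and by Csf1r, the receptor on which microglia depend for survival, at 2.41 CPM per kb. In all, 5 genes stayed under the filter and are given by their counts alone. Aif1, which encodes the widely used microglial antigen IBA1, had 2 to 11 counts in a library. The co-stimulatory ligand Cd86 had 0 to 10 counts. Itgax, Cst7 and Clec7a, which mark the disease-associated state of microglia, had 0 to 8 counts each. Clec7a had no count in 3 of the 6 libraries of 3-month retina. At 12 months it had 3 to 4 counts in control and 6 to 8 in KO retina, while Itgax and Cst7 had libraries at 0 at both ages. No fold is given for these genes.

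To show 3 known motifs near the start of 3 of the genes, promoter sequences were taken from RefSeq (GRCm38.p6), which matched 24 of the 34 genes. Capitals mark, in H2-Aa, the X2 box (TGACGTCA, first base at -74 from the start) and the Y box (GATTGG, at -49) of class II promoters, and in Ctss and Cd53 the letters ACTTCCTC, the reverse complement of GAGGAAGT, which the myeloid factor PU.1 (the product of Spi1) is known to bind.
H2-Aa: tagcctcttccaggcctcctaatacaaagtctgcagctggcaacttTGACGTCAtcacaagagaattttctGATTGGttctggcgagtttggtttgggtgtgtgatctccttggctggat
Ctss: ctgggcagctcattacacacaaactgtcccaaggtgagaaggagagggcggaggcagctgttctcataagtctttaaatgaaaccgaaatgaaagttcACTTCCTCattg
Cd53: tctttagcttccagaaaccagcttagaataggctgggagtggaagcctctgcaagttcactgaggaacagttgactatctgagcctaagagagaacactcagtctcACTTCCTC
The H2-Aa stretch is chr17:34287824-34287943 on the minus strand, the Ctss stretch chr3:95526686-95526795 on the plus strand and the Cd53 stretch chr3:106790136-106790249 on the minus strand. Within 250 bases before and 50 after the start, on either strand, GAGGAAGT was found in 2 of the 24 genes (8.33%) and in 3.69% of 27025 promoters. TGACGTCA was found in 1 of 24 (4.17%) and in 2.03% of all promoters. GATTGG was found in 4 of 24 (16.7%: Cd53, Trem2, Cd68 and H2-Aa) and in 18.2% of all promoters. The motifs do not overlap each other in the H2-Aa stretch, and a match is a description of the letters only.

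On the CPM scale, retina at 12 months held more RNA of these genes than retina at 3 months in both genotypes. At 3 months the 34 genes summed to 62.9 ± 4.05 CPM in control and 63.1 ± 2.096 CPM in KO retina (SD, n = 3), and 78.7 ± 0.795 and 80.9 ± 3.56 CPM at 12 months. The 6 libraries of 12 months, at 77.7 to 84.7 CPM, all lay above the 6 of 3 months, at 58.7 to 66.7 CPM. By role, the summed activation and phagocytosis genes were at 14.6 to 20.3 CPM at 3 months and at 20.8 to 28.9 CPM at 12 months, and the summed shared myeloid genes at 19.5 to 23.4 and at 24.9 to 29.1 CPM, with no overlap between the ages for either role. Summed homeostatic genes (18.6 to 26.9 CPM at 3 months, 21.2 to 25.1 at 12 months) and summed class II genes (3.77 to 4.63 and 3.84 to 6.18 CPM) did overlap between the ages. The homeostatic 26.9 CPM was that of replicate 2 of 3-month control, the library with lens RNA, where Olfml3 alone was at 16.5 CPM. In the other libraries of 3 months Olfml3 was at 7.92 to 9.69 CPM, and the highest homeostatic sum among them was 21.5 CPM.

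**Figure D1:**
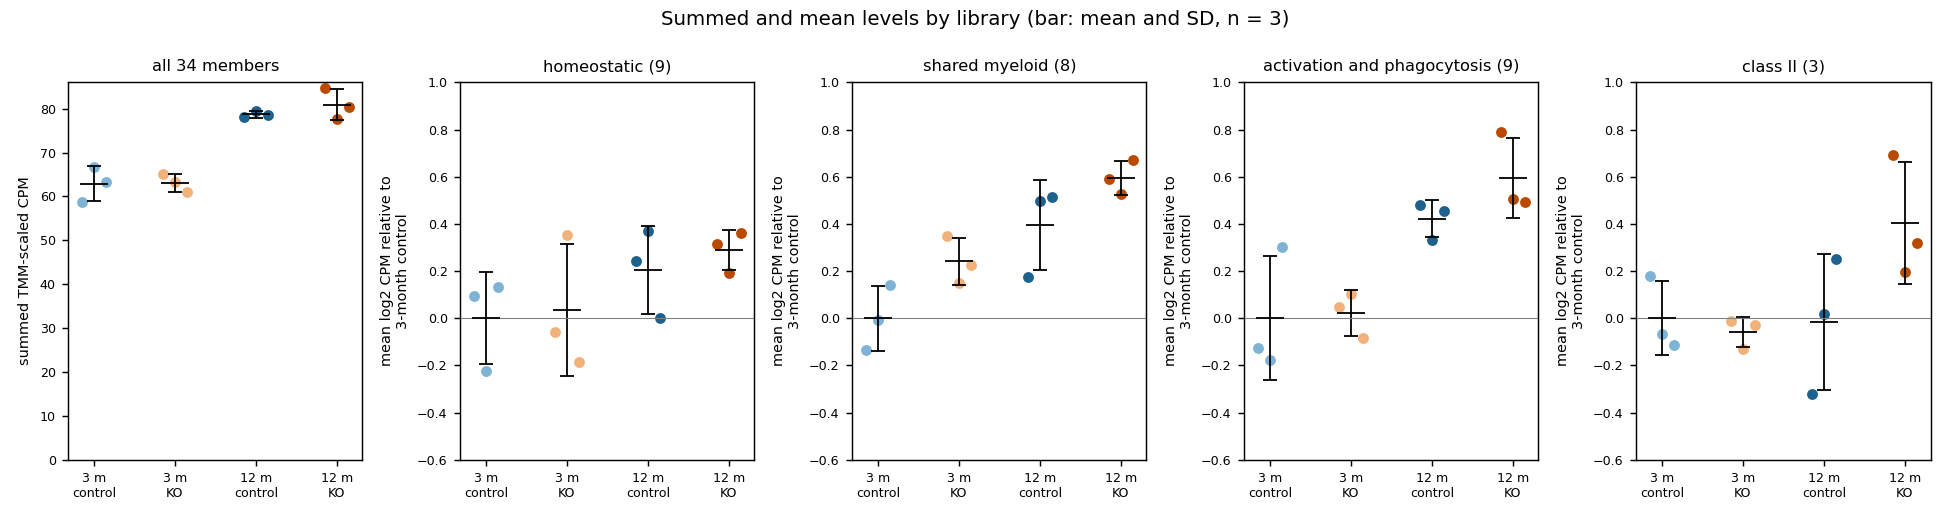
Levels in each library of 3-month control, 3-month KO, 12-month control and 12-month KO retina (points, with the mean and SD of 3 libraries). The first panel gives the TMM-scaled CPM summed over the 34 genes, and the others give the mean log2 CPM of the genes tested in each role, relative to the mean of 3-month control. The summed CPM of the 12-month libraries runs from 77.7 to 84.7 and that of the 3-month libraries from 58.7 to 66.7.

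The question of age was put to each genotype separately and, in a contrast added after the data had been seen, to the mean of both genotypes, which sets 6 libraries against 6. All p-values are from edgeR's quasi-likelihood test, adjusted by Benjamini-Hochberg over the 16475 genes tested. Within control retina 0 of the 29 genes passed an adjusted p of 0.05, against 2.11% of all genes in either direction. The lowest adjusted p was 0.061 (Cx3cr1), 7 of 29 had an unadjusted p under 0.05, all higher at 12 months (6.49% of all genes), DESeq2 called 3 and limma-voom 2. Within KO retina 1 of 29 passed, Cd14, against 1.54% of all genes called higher. In the mean of both genotypes 7 of 29 were called higher and 0 lower, where 3.62% of all genes were called higher and 6.38% in either direction. The 7 were Cd14, Laptm5, Ctss, Trem2, Csf1r, Cx3cr1 and Lyz2. Of all 29 genes, 4 had all 6 libraries of 12 months above all 6 of 3 months, where 2.15% of the 16475 genes did. These 4 were Cd14, Laptm5, Trem2 and Cx3cr1, each of them among the 7 called. With 1 library left out the number called was 4 to 6. It was 4 without replicate 3 of 3-month KO or without replicate 2 or 3 of 12-month control or KO. In control retina alone Csf1r was called without replicate 2 of 3-month control, and in KO retina alone Lyz2 was called beside Cd14 without replicate 1 or 2 of 3-month control.

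The largest of these rises was that of Cd14 (Entrez 12475, chromosome 18 from 36725064 to 36726815, GRCm38), the co-receptor through which toll-like receptors sense lipopolysaccharide. Its level was 2.21, 1.64 and 2.44 CPM in the 3 control libraries at 3 months and 1.59, 1.65 and 1.69 CPM in the KO libraries of that age. At 12 months it was 4.47, 2.96 and 3.41 CPM in control and 3.96, 3.30 and 3.67 CPM in KO retina. Every 12-month library lay above every 3-month library. The rise was 1.95-fold in the mean of both genotypes (log2 fold change 0.97 ± 0.16 SE, adjusted p = 0.00046). In KO retina alone it was 2.22-fold (1.15 ± 0.22, adjusted p = 0.0062) and in control retina alone 1.72-fold (0.78 ± 0.22, adjusted p = 0.072). The difference between the 2 age effects was 0.36 ± 0.31 on the log2 scale and did not pass (adjusted p = 0.999).

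Trem2 (Entrez 83433, chromosome 17 from 48346401 to 48352276), the lipid-sensing receptor of phagocytic microglia, was at 1.50, 1.24 and 1.54 CPM in 3-month control and 1.32, 1.06 and 1.49 CPM in 3-month KO retina. It was at 2.70, 2.32 and 2.16 CPM in 12-month control and 2.71, 1.98 and 1.80 CPM in 12-month KO retina. The ages did not overlap, and the rise was 1.68-fold (0.75 ± 0.18 SE, adjusted p = 0.015, mean of both genotypes). The size was close in control (0.75 ± 0.25) and KO retina (0.75 ± 0.26), with adjusted p = 0.17 in both. The levels of its adaptor Tyrobp ran from 0.871 to 1.55 CPM at 3 months and from 1.21 to 2.31 CPM at 12 months, and its change of 0.32 ± 0.22 on the log2 scale did not pass (adjusted p = 0.48).

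Ctss (Entrez 13040, chromosome 3 from 95526786 to 95556405) was at 5.30, 5.06 and 6.90 CPM in 3-month control and 6.18, 6.24 and 6.77 CPM in 3-month KO retina. At 12 months its level was 9.75, 6.86 and 7.83 CPM in control and 8.72, 8.74 and 8.08 CPM in KO retina. A single library of 3-month control (6.90 CPM) lay above the lowest of 12-month control (6.86 CPM), and the ages were otherwise apart. The rise was 1.37-fold (0.46 ± 0.11 SE, adjusted p = 0.015), and without replicate 1 of 12-month control its adjusted p was 0.052.

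Lyz2 (Entrez 17105, chromosome 10 from 117277541 to 117282272), the lysozyme of macrophages, was at 2.99, 1.41 and 1.31 CPM in 3-month control and 1.79, 2.47 and 1.25 CPM in 3-month KO retina. At 12 months it was at 2.103, 2.25 and 3.34 CPM in control and 3.93, 4.34 and 3.36 CPM in KO retina. The control ages overlapped, and the KO ages did not. The rise was 1.69-fold in the mean of both genotypes (0.76 ± 0.22 SE, adjusted p = 0.043), a call that was lost when replicate 2 or 3 of 3-month control, 1 or 3 of 3-month KO, 2 or 3 of 12-month control, or any replicate of 12-month KO was left out (adjusted p up to 0.14). Lyz2 also shares much of its sequence with Lyz1, and how reads that fit both were counted is not given in the sources used here.

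The other tested genes of activation and phagocytosis were Tyrobp, Fcer1g, the Fc receptors Fcgr3 and Fcgr1, and the lysosomal Cd68, and none of them was called. All 9 tested genes of the role had a log2 fold change above 0 in control and in KO retina alike, as had 8307 and 8202 of the 16475 genes. The smallest were 0.07 for Fcer1g in control and 0.02 for Fcgr1 in KO retina. Both changed sign under at least 1 alternative fit, as did Cd68 in each genotype. The median of the 9 was 0.43 in control and 0.57 in KO retina, and 0.46 in the mean of both genotypes. The median of all genes was 0.00 in each.

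**Figure D2:**
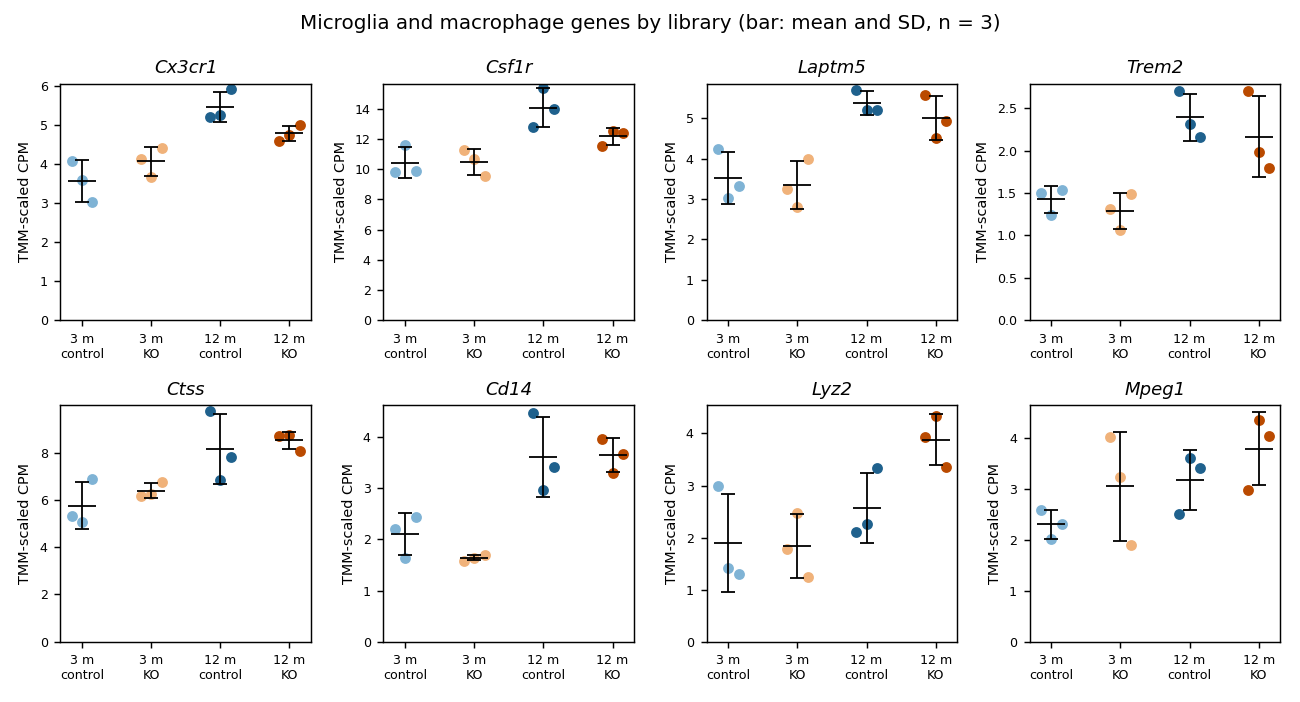
TMM-scaled CPM of 8 genes in each library (points), with the mean and SD of 3 libraries, in 3-month control, 3-month KO, 12-month control and 12-month KO retina. For Cx3cr1, Laptm5, Trem2 and Cd14 the 6 libraries of 12 months lie above the 6 of 3 months, while the ages of Csf1r, Ctss, Lyz2 and Mpeg1 overlap.

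Among the genes shared by myeloid cells, the lysosomal membrane protein gene Laptm5 (Entrez 16792, chromosome 4 from 130912890 to 130936148) was at 4.25, 3.02 and 3.31 CPM in 3-month control and 3.24, 2.81 and 3.99 CPM in 3-month KO retina. It was at 5.71, 5.21 and 5.20 CPM in 12-month control and 5.58, 4.51 and 4.92 CPM in 12-month KO retina. The 2 ages did not overlap, and the rise was 1.51-fold (0.59 ± 0.13 SE, adjusted p = 0.0076, mean of both genotypes). Csf1r (Entrez 12978, chromosome 18 from 61105572 to 61131139) was at 9.79, 11.6 and 9.87 CPM in 3-month control and 11.2, 10.7 and 9.57 CPM in 3-month KO retina. Its level was 12.8, 15.4 and 14.01 CPM in 12-month control and 11.5, 12.5 and 12.4 CPM in 12-month KO retina. The ages separated within each genotype, though replicate 1 of 12-month KO (11.5 CPM) lay just under replicate 2 of 3-month control (11.6 CPM). The rise was 1.25-fold (0.32 ± 0.086 SE, adjusted p = 0.028), and the call was lost without replicate 1 or 3 of 3-month control, or without replicate 2 or 3 of any other group (adjusted p up to 0.094).

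Mpeg1, which encodes the pore-forming perforin-2 of macrophages, was at 2.58, 2.01 and 2.31 CPM in 3-month control and 4.02, 3.22 and 1.89 CPM in 3-month KO retina. At 12 months it was at 2.50, 3.60 and 3.41 CPM in control and 2.97, 4.34 and 4.04 CPM in KO retina. The ages overlapped in both genotypes and the change of 0.39 ± 0.18 on the log2 scale did not pass (adjusted p = 0.24). Ly86, the partner of a toll-like receptor homologue, had the largest log2 fold change of the role, 0.83 ± 0.26, and missed the threshold (adjusted p = 0.070). All 8 tested genes of the role had a log2 fold change above 0 in the mean of both genotypes (8192 of the 16475 genes), with a median of 0.35. The pan-leukocyte phosphatase gene Ptprc, the tetraspanin gene Cd53, the integrin gene Itgam and Spi1 were not called.

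Of the homeostatic genes, Cx3cr1 (Entrez 13051, chromosome 9 from 120048683 to 120068296) alone was called. It was at 4.08, 3.59 and 3.01 CPM in 3-month control and 4.12, 3.67 and 4.40 CPM in 3-month KO retina. It was at 5.21, 5.25 and 5.91 CPM in 12-month control and 4.59, 4.74 and 4.99 CPM in 12-month KO retina. The 12-month control libraries were the highest, and no library of 3 months reached any of 12 months. The rise was 1.34-fold (0.42 ± 0.12 SE, adjusted p = 0.034). This call was lost without replicate 3 of 3-month control, without replicate 2 or 3 of 12-month KO, and without any single library of 3-month KO or 12-month control (adjusted p up to 0.098).

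Other homeostatic genes gave no call with age. Tmem119, a marker that separates microglia from blood-derived macrophages, was at 2.04, 2.85 and 3.11 CPM in 3-month control and 2.40, 2.09 and 2.40 CPM in 3-month KO retina. It was at 3.41, 2.66 and 2.06 CPM in 12-month control and 3.27, 3.26 and 2.72 CPM in 12-month KO retina, so the control ages overlapped and the KO ages did not (0.42 ± 0.23 on the log2 scale in KO retina, adjusted p = 0.45). Olfml3, a secreted protein gene, was at 7.92, 16.5 and 8.37 CPM in 3-month control and 9.69, 9.50 and 9.37 CPM in 3-month KO retina. Its highest value, 16.5 CPM, was in the library with the lens RNA, and the part of that RNA in it was not tested. At 12 months Olfml3 was at 9.88, 11.3 and 9.25 CPM in control and 10.1, 8.41 and 9.03 CPM in KO retina, which overlapped with the 3-month levels of the same genotype. The log2 fold changes of the 9 homeostatic genes had a median of 0.03 in control, 0.08 in KO retina and 0.22 in the mean of both genotypes.

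**Figure D3:**
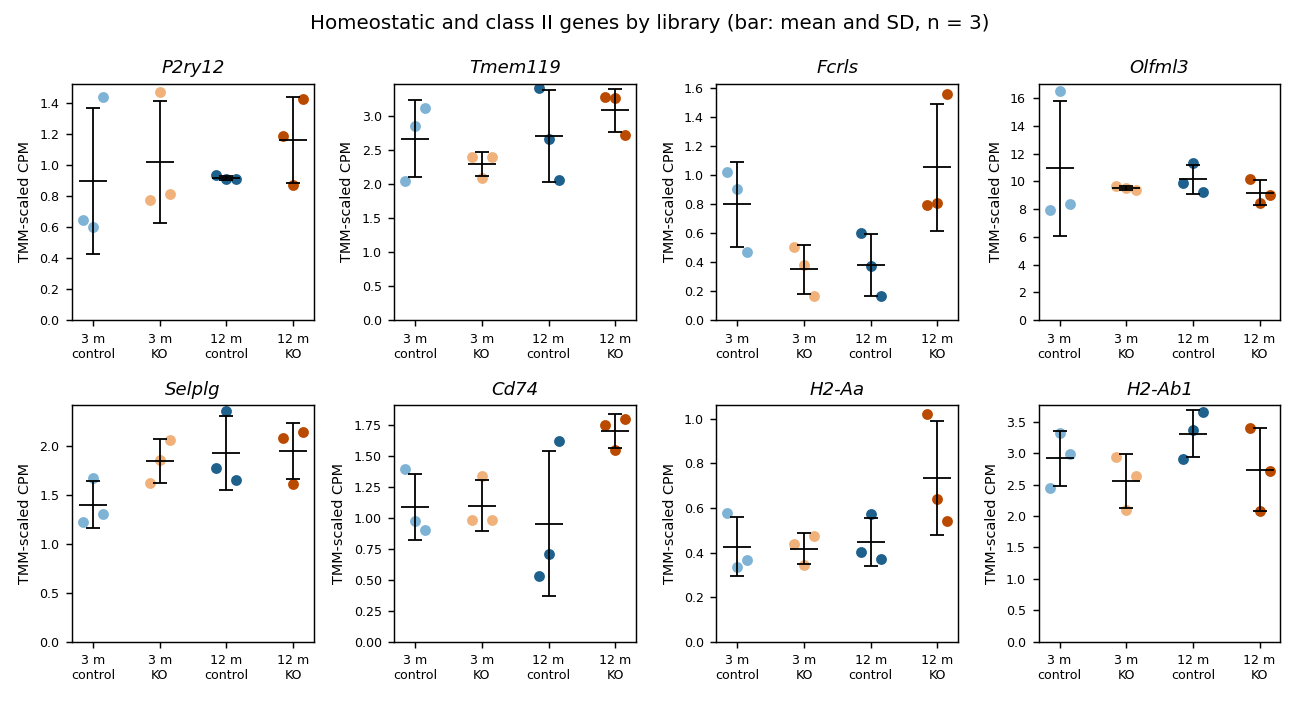
TMM-scaled CPM of 5 homeostatic genes (P2ry12, Tmem119, Fcrls, Olfml3, Selplg) and the 3 class II genes in each library (points), with the mean and SD of 3 libraries, by age and genotype. Olfml3 reaches 16.5 CPM in 1 library of 3-month control, and Fcrls is at 0.793 to 1.56 CPM in 12-month KO against 0.169 to 0.601 CPM in 12-month control retina.

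The class II genes were not called with age. Cd74 was at 1.39, 0.972 and 0.904 CPM in 3-month control and 0.979, 1.34 and 0.981 CPM in 3-month KO retina. It was at 0.534, 0.706 and 1.62 CPM in 12-month control and 1.75, 1.55 and 1.80 CPM in 12-month KO retina. The 12-month control libraries spread more widely than those of any other group, and in KO retina the 12-month libraries lay above the 3-month ones. H2-Aa, whose promoter is printed above, was at 0.578, 0.335 and 0.368 CPM in 3-month control, 0.439, 0.343 and 0.474 CPM in 3-month KO, 0.401, 0.572 and 0.371 CPM in 12-month control and 1.02, 0.639 and 0.543 CPM in 12-month KO retina. H2-Ab1, its partner chain, was at 2.45, 3.32 and 2.98 CPM in 3-month control, 2.94, 2.09 and 2.64 CPM in 3-month KO, 2.90, 3.36 and 3.65 CPM in 12-month control and 3.40, 2.08 and 2.72 CPM in 12-month KO retina. For H2-Aa every 12-month KO library lay above every 3-month KO library, while the levels of H2-Ab1 overlapped between the ages in both genotypes. The log2 fold changes with age in KO retina were 0.63 ± 0.36 for Cd74, 0.81 ± 0.43 for H2-Aa and 0.10 ± 0.23 for H2-Ab1, with adjusted p of 0.49, 0.45 and 0.92. In control retina they were -0.19 ± 0.37, 0.07 ± 0.45 and 0.18 ± 0.22, with adjusted p of 0.83 or more.

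Between the genotypes, 23 of the 29 genes had a log2 fold change with age above 0 in both, 2 below 0 in both and 4 of opposite sign. Within control retina 24 of 29 were above 0 (8307 of the 16475 genes) and 6 had non-overlapping ages in that direction (9.21% of all genes), with a median of 0.26. Within KO retina 26 of 29 were above 0 (8202 of the 16475 genes) and 13 had non-overlapping ages in that direction (10.7% of all genes), with a median of 0.31. The age comparison in control retina carries the muscle RNA of 3-month control beside it, and the one in KO retina the Xist level of 12-month KO, and their part in the result was not tested. Markers of pigment epithelium and melanocytes summed to 94.6 ± 26.7 CPM in control and 85.3 ± 11.4 CPM in KO retina at 3 months, and to 66.0 ± 9.64 and 66.6 ± 8.78 CPM at 12 months (SD, n = 3). Of the 8 markers, 7 had a log2 fold change with age below 0 in control retina (median -0.85). There 4 were lower at an unadjusted p under 0.05, as were 993 of the 16475 genes, and 0 were called. In KO retina 5 of the 8 were above 0 and 3 below (median 0.14). Among the 3, 1 was called lower, Rpe65 (-0.68 ± 0.17, adjusted p = 0.033 by edgeR), a visual cycle gene, where 137 of the 16475 genes were called lower. The part of these 8 markers in the result was not tested either. The summed muscle markers were at 4.18 to 7.34 CPM in 3-month KO and 3.36 to 5.32 CPM in 12-month KO retina. In a further fit the genes of lens, cornea, muscle, pigment epithelium and red blood cells were left out of the library sizes. There 7 genes were again called higher in the mean of both genotypes. That fit changes the scaling of the libraries alone, so it cannot show the part of RNA from other tissues.

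**Figure D4:**
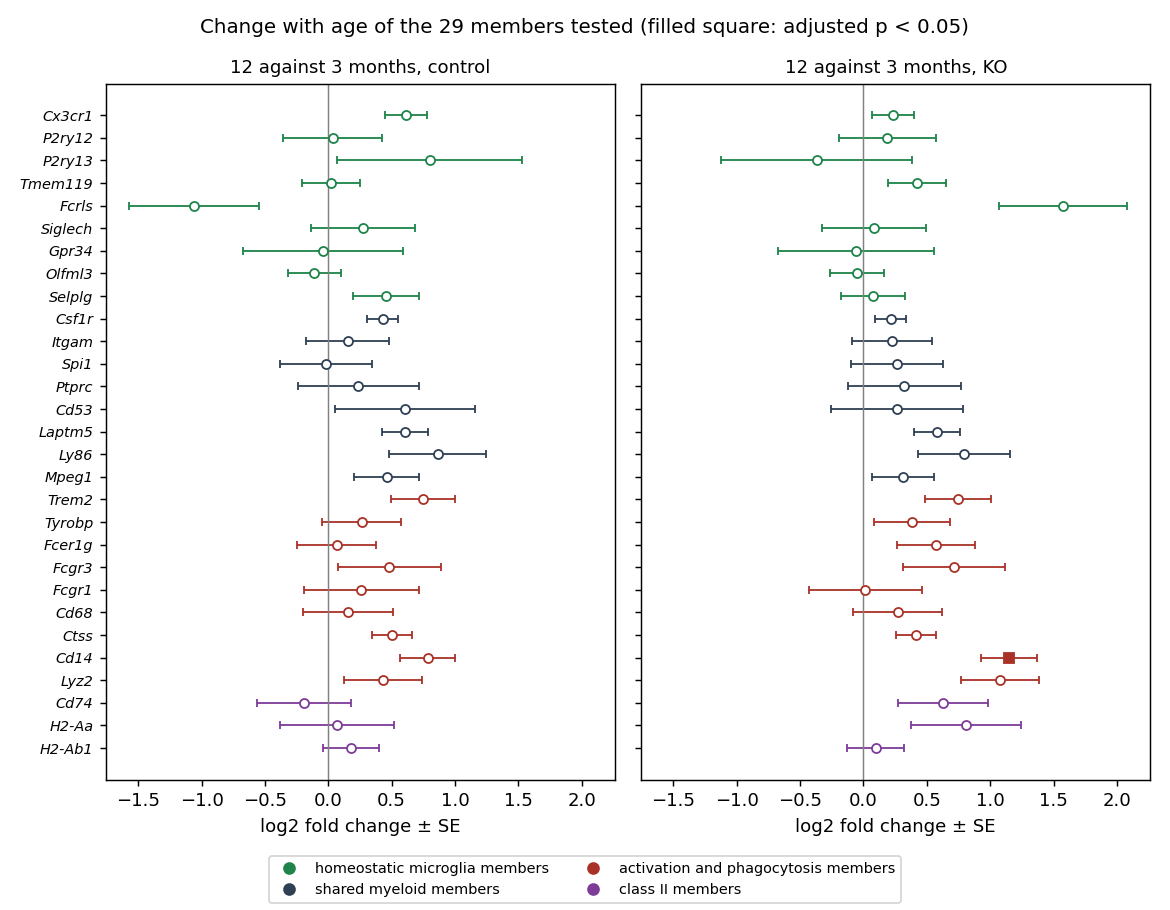
Log2 fold change ± SE of the 29 tested genes at 12 against 3 months in control (left) and in KO retina (right), coloured by role. A filled square marks an adjusted p under 0.05, which Cd14 in KO retina alone reaches, and most open circles lie to the right of 0 in both panels.

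Related genes outside the 34 were read in the same contrast, the mean of both genotypes. Of the microglial transcription factors, Mef2c (log2 fold change 0.33 ± 0.067 SE, adjusted p = 0.0038) and Cebpa (0.56 ± 0.13, adjusted p = 0.011) rose. Mef2c, which neurons are also known to express, stood at 51.6 to 97.2 CPM in the 12 libraries. In a list of other microglia genes, written with earlier results of these data known, 5 of 15 tested genes rose (3.62% of all genes). The 4 with the smallest adjusted p among them were the complement genes C1qa (0.60 ± 0.090, adjusted p = 0.00022) and C1qc (0.72 ± 0.12, adjusted p = 0.00049), the ribonuclease gene Rnase4 (0.72 ± 0.20, adjusted p = 0.033) and the third chain gene of C1q, C1qb (0.64 ± 0.18, adjusted p = 0.037).

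In 4 other lists no gene was called with age, where 3.62% of all genes were called higher and 6.38% in either direction. At an unadjusted p under 0.05, 3 of 14 TREM2 and disease-associated genes and 2 of 8 ligand genes were higher (1561 of the 16475 genes). Lower at that level were 1 ligand, 1 class II and 1 perivascular macrophage gene (1512 of the 16475 genes). Over the 4 lists the lowest adjusted p was 0.060. Of 14 genes of TREM2 signalling and the disease-associated state 0 were called with age (median 0.06), including the highly expressed Apoe (0.19 ± 0.062) and the lysosomal protease gene Ctsb (0.06 ± 0.048). Of 9 other class II pathway genes tested 0 were called (median 0.03), including Ctsl (-0.07 ± 0.077) and Rfx5 (-0.24 ± 0.077), a transcription factor of class II genes. Of 8 growth factor and survival ligand genes 0 were called (median 0.00). The CSF1R ligands Csf1 (0.33 ± 0.11) and Il34 (0.27 ± 0.090) did not pass, nor did the CX3CR1 ligand Cx3cl1 (-0.11 ± 0.049), which stood at 102 to 124 CPM, or the growth factor gene Tgfb2 (0.04 ± 0.058). Of 4 perivascular macrophage genes tested 0 were called (median -0.13), with Lyve1 at -0.27 ± 0.11 and Stab1 at 0.02 ± 0.12. Among markers of other blood cells, Nr4a1, an early response gene also made by neurons, rose by 0.77 ± 0.065 (adjusted p = 1.9e-07), and the dendritic cell receptor gene Xcr1, which had 2 to 34 counts, rose by 1.48 ± 0.39 (adjusted p = 0.025). Neutrophil markers summed to 0.971 to 1.55 CPM at 3 months and 1.45 to 2.05 CPM at 12 months, with 1 of 7 over the filter. That gene was Csf3r (mean 0.897 CPM, 16 to 36 counts). The part of these cells in the rises was not tested.

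The comparison of KO with control retina asks whether the KO label goes with a change in these genes, and Abca1 was not lower under that label. The 12-month comparison carries the Xist level of 12-month KO beside it. The 3-month one carries the muscle RNA of 3-month control and the lens RNA of its replicate 2. The difference of the KO effects between ages carries all of these, and their part in the results was not tested. At 12 months 0 of the 29 were called, against 0.212% of all genes, and the lowest adjusted p was 0.38. DESeq2 and limma-voom also called 0, and 2 of 29 had an unadjusted p under 0.05, Fcrls and Cd74, both higher in KO retina (3.79% of all genes). The median log2 fold change of the 29 was 0.18, against 0.00 over all genes. By role it was 0.01 for the homeostatic, 0.22 for the shared myeloid, 0.17 for the activation and phagocytosis and 0.71 for the class II genes, the last over 3 genes and 0.40 without replicate 1 of 12-month KO. The summed level of the 34 genes in KO retina (77.7 to 84.7 CPM) overlapped with that in control retina (78.0 to 79.6 CPM).

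Fcrls, a homeostatic Fc receptor-like gene named here after its values were seen, had the largest log2 fold changes. It was at 0.601, 0.370 and 0.169 CPM in 12-month control and 0.793, 0.807 and 1.56 CPM in 12-month KO retina. At 3 months the order was the other way, with 1.02, 0.905 and 0.469 CPM in control and 0.506, 0.377 and 0.169 CPM in KO retina. The groups did not overlap at 12 months and overlapped at 3 months. Its log2 fold change, KO against control, was 1.46 ± 0.50 SE at 12 months (adjusted p = 0.38) and -1.17 ± 0.52 at 3 months (adjusted p = 0.66), and the difference of the 2, 2.63 ± 0.72, did not pass (adjusted p = 0.46). These levels rest on 5 to 46 counts per library.

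For the class II genes at 12 months the log2 fold changes of KO against control were 0.83 ± 0.36 for Cd74 (adjusted p = 0.53), 0.71 ± 0.43 for H2-Aa (adjusted p = 0.66) and -0.27 ± 0.22 for H2-Ab1 (adjusted p = 0.76). In all 3 genes the 12-month groups overlapped. Among the genes of activation and phagocytosis, Lyz2 (0.60 ± 0.30, adjusted p = 0.58) and Tyrobp (0.42 ± 0.30, adjusted p = 0.71) had all 12-month KO libraries above the controls. Fcrls and Itgam were the other genes with that order, 4 of 29 in all where 8.32% of all genes show it. Cx3cr1 (-0.19 ± 0.16, adjusted p = 0.77) and Csf1r (-0.21 ± 0.12, adjusted p = 0.65) had all KO libraries below the controls, 2 of 29 where 8.33% of all genes do. For Cd14 the estimate was 0.01 ± 0.21, for Ctss 0.06 ± 0.15 and for Trem2 -0.15 ± 0.25. In the authors' deposited table for this comparison, 23 of the 34 genes had a positive log2 fold change and 0 of the 31 with an adjusted p were below 0.05.

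**Figure D5:**
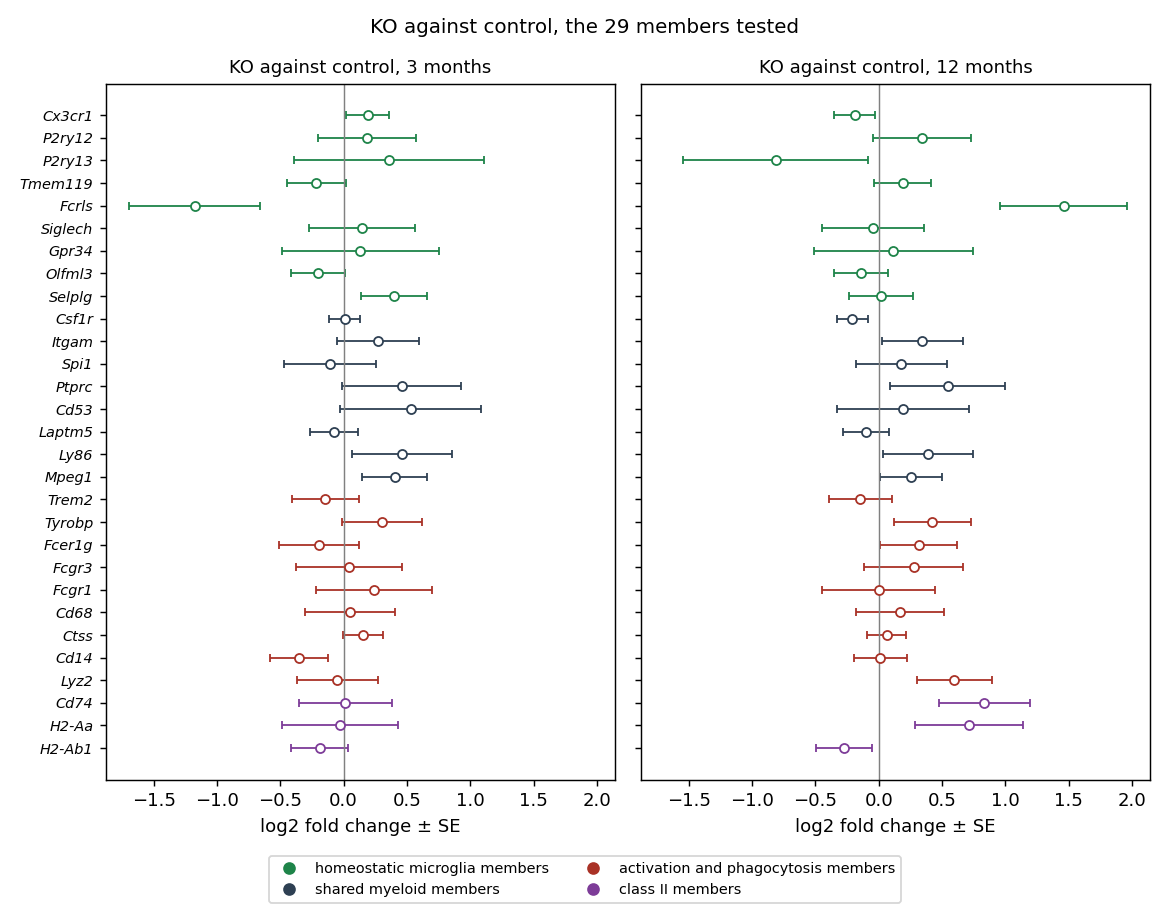
Log2 fold change ± SE of the 29 tested genes, KO against control retina at 3 months (left) and 12 months (right), coloured by role. No gene reaches an adjusted p under 0.05, and Fcrls has the largest estimates, -1.17 at 3 months and 1.46 at 12 months.

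At 3 months 0 of the 29 were called either, against 0.225% of all genes, with a lowest adjusted p of 0.66. DESeq2 and limma-voom called 0, and Fcrls alone had an unadjusted p under 0.05, lower in KO retina (4.02% of all genes). No gene had non-overlapping groups, against 7.97% of all genes higher and 7.66% lower. The median log2 fold change was 0.05, and by role 0.15 for the homeostatic, 0.34 for the shared myeloid, 0.04 for the activation and phagocytosis and -0.03 for the class II genes. Cd14 had the estimate -0.35 ± 0.23, Csf1r 0.01 ± 0.12 and Cx3cr1 0.19 ± 0.17. Between the 2 ages, 13 of the 29 genes had a KO effect above 0 at both, 4 below 0 at both and 12 of opposite sign.

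The KO effect did not pass for any of the 29 genes when averaged over both ages (0.316% of all genes called, lowest adjusted p 0.43, 0 of 29 at an unadjusted p under 0.05 where 6.26% of all genes are higher and 6.64% lower, median 0.12), a contrast added after the data had been seen, where DESeq2 and limma-voom also called 0. The difference of the KO effects between ages was called for 0 of 29, against 0.127% of all genes, and for 0 by DESeq2 and limma-voom, and Fcrls alone had an unadjusted p under 0.05 (2.25% of all genes are higher so). The standard errors set what could be seen. Over the 29 genes the median SE of the KO effect at 12 months was 0.32 on the log2 scale, from 0.12 (Csf1r) to 0.73, against 0.12 over all genes, so that effects of the size of most estimates above were not detectable at this depth and with 3 libraries a group. Of the related lists, 0 of 15 other microglia genes, 0 of 14 TREM2 and disease-associated genes, 0 of 9 other class II genes, 0 of 4 perivascular macrophage genes and 0 of 8 ligand genes were called in KO against control retina at either age. Of all genes 0.212% were called at 12 months and 0.225% at 3 months. At 12 months 2 of the 4 perivascular genes had an unadjusted p under 0.05, both higher in KO retina (3.79% of all genes). The other 2 were below 0, and the lowest adjusted p of the 4 was 0.52. At that age 1 TREM2 gene and 1 other microglia gene were also higher at that level. At 3 months 2 class II genes, 1 TREM2 gene and 1 ligand gene were lower at that level (4.02% of all genes).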

How the data were processed

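The submitters' processing notes name HISAT2 2.1.0, GRCm38, featureCounts 1.6.4 and DESeq2 1.22.1. For each of the 12 libraries the authors deposited a table of raw counts by Entrez gene ID. How strand and multiply aligned reads were handled is not stated in the sources at hand, so overlapping genes and near-identical copies are uncertain. Of the counts from 1 to 20, 60.7% to 70.2% were even numbers, so a low count may stand for fewer fragments. For the 12-month comparison the authors deposited a further table without a header, whose log2 fold change and adjusted p-value were read by position.

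From the counts, edgeR 4.0.16 (with limma 3.58.1 in R 4.3.3) fitted a robust quasi-likelihood model to the 12 libraries together, with a coefficient for each group, after filterByExpr (minimum count 10) and TMM scaling. Adjusted p-values are Benjamini-Hochberg over all 16475 genes tested, with a threshold of 0.05. CPM uses TMM-scaled library sizes, log2 CPM a prior count of 2, and values per kb the exon lengths of GENCODE M21.

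The members and lists were chosen with earlier results of these data known. Values in every library are given for members with an adjusted p under 0.05 in a comparison and for the 3 members of each role with the highest mean CPM. From the other lists of microglial and perivascular genes and of monocyte and dendritic cell markers the genes with an adjusted p under 0.05 (at most 4) or, where none, the 2 with the highest mean CPM are named. A gene that this rule names is not reported here. Fcrls, Tyrobp, Ly86, Itgam, Csf1, Il34, Jchain, Flt3, Zbtb46, Rpe65 and the low markers of other blood cells were chosen once their values were known. So were Cbr2, Clec10a and Csf3r. The sex-linked genes, Abca1, both contrasts that average 2 comparisons, halved counts and the fit without both libraries in doubt were chosen after seeing the data. The other alternatives were other scaling factors (RLE, upper quartile), library sizes without RNA of other tissues, DESeq2 1.42.0 and limma-voom as tests, other filters, a threshold of 0.1, fits to the compared groups alone, the replicate number as a block, and leaving out each library.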

Additional observations from a re-analysis of the deposited data

How the results depend on the processing

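In KO against control retina 0 members were called under every alternative run, at either age and averaged over ages, and likewise for the difference of the KO effects. For age in control retina, where 0 were called, DESeq2 called 3, limma-voom 2, a threshold of 0.1 3 and the fit without both libraries in doubt (replicate 2 of 3-month control and replicate 1 of 12-month KO) 2, and with 1 library left out 0 to 1. For age in KO retina, where 1 was called, limma-voom called 3, and DESeq2, no filter, a threshold of 0.1, only the libraries compared, halved counts and the fit without both libraries in doubt called 2 each, and with 1 library left out 1 to 2. The call of Cd14 there was kept in all alternatives run. The 7 calls in the mean of both genotypes became 8 with DESeq2, limma-voom or a threshold of 0.1, through Ly86, and 4 to 6 with 1 library left out. The cause of these moves was not tested.

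The median log2 fold change of the class II members for KO at 12 months was 0.28 with a filter of 1 CPM in 3 libraries, 0.28 with halved counts and 0.40 without both libraries in doubt, and for age in KO retina 0.37 with that filter and 0.37 with halved counts, since H2-Aa no longer passed and 2 members remained. The median of shared myeloid members for KO at 3 months was 0.13 with that filter and 0.20 with halved counts, as fewer members were tested. For age in control retina that of homeostatic members was 0.24 with limma-voom and that of activation members 0.26 without both libraries in doubt (the cause was not tested).

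With 1 library left out, the medians ran as follows. For KO at 12 months they were -0.08 to 0.17 (homeostatic), 0.080 to 0.36 (shared myeloid), 0.05 to 0.21 (activation and phagocytosis), 0.40 to 0.80 (class II). For KO at 3 months they were -0.17 to 0.24 (homeostatic), 0.078 to 0.43 (shared myeloid), -0.11 to 0.30 (activation and phagocytosis), -0.13 to 0.23 (class II). For age in control retina they were -0.14 to 0.41 (homeostatic), 0.35 to 0.53 (shared myeloid), 0.24 to 0.62 (activation and phagocytosis), -0.08 to 0.14 (class II). For age in KO retina they were 0.0025 to 0.36 (homeostatic), 0.27 to 0.39 (shared myeloid), 0.46 to 0.76 (activation and phagocytosis), 0.49 to 0.69 (class II).

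Same-numbered replicates correlated at -0.082 to 0.044, so the numbers were not taken as pairs. With the replicate block 6 members were called in the mean of both genotypes, without Cx3cr1 (adjusted p = 0.052), and 0, 0, 0 and 1 for KO at 12 and 3 months and age in control and KO retina. Depth limits these genes: 22 of the 34 had 10 or more counts in each library, and 76 of 203 estimates, over 29 members and 7 comparisons, changed sign under at least 1 alternative.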
